A study of Mus musculus with 16 samples.

Results

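The 26S proteasome is the protease that degrades proteins tagged with ubiquitin. Its genes were taken as those whose symbol is Psma, Psmb, Psmc, Psmd, Psme or Psmg followed by a number, leaving out the interferon-inducible subunits Psmb8 and Psmb9. This rule names 45 of the 19057 genes with a single-symbol probe on the array, and each gene was read from its brightest probe. Of these genes, 38 had a detection p-value under 0.05 on at least 3 arrays and were tested, among 12020 genes that met the same condition.

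RNA of the hippocampus of male C57Bl6/J mice was hybridised to 16 Illumina bead arrays. The mice were 2 or 12 months old and had carried an osmotic minipump under the skin for 28 days, which delivered Δ9-tetrahydrocannabinol (THC, the compound of cannabis that mainly causes its psychoactive effect) at a daily 3 mg per kg, or vehicle, a mixture of ethanol, cremophor and saline. At 2 months each treatment had 3 arrays, and at 12 months each had 5. All mice, vehicle mice included, went through a water maze test between days 33 and 41 and were killed on day 46, so the drug had been withdrawn when the tissue was taken. The labels give separate samples and the design text gives 3 to 5 mice a group, with no further link of mice to arrays. The p-values therefore measure the spread between these arrays.

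The proteasome is built from a barrel, the 20S core, and a cap, the 19S particle. The core stacks outer alpha rings, which gate the entrance, on inner beta rings, whose subunits Psmb6, Psmb7 and Psmb5 cut after acidic, basic and hydrophobic residues. The cap binds ubiquitin chains, removes them and threads the protein into the core with a ring of ATPases, the Psmc genes. Dedicated chaperones assemble core and cap, and the PA28 and PA200 activators can take the place of the cap. When proteasome activity is short, the transcription factor NFE2L1 raises the subunit genes together through antioxidant response elements in their promoters. In the hippocampus, protein breakdown by the proteasome is known to take part in synaptic plasticity and memory.

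Promoter sequences are shown because the subunit genes are known for this shared control. The RefSeq table (GRCm38.p6) held a promoter for 37 of the 45 genes, 32 of them tested, and 250 bases before each start were searched on both strands. The core of the antioxidant response element, TGACNNNGC, lay in 5 of the 37 promoters (13.5%), those of Psmb5, Psmb6, Psmc6, Psmd9 and Psmd12. This is near the share of all genes, 11.5% of the 27025 in the table and 12% of its 17492 coding genes. CCGGAAG, a sequence that ETS family factors bind, lay in 12 of the 37 (32.4%), against 7.83% of all genes and 10.2% of coding genes. CCAAT was found in 35.1%, against 37.5% of all genes, and TATAAA in 8.11%, against 14.3%. The matches of different motifs did not overlap in these promoters (0 overlaps), and a match is a description of the letters, not a measured binding site. The promoter of Psmb5, the subunit that differed most between arrays, is printed along the strand of the gene, with the antioxidant response element core in capitals.
Psmb5 (chr14:54617996-54618245, minus strand): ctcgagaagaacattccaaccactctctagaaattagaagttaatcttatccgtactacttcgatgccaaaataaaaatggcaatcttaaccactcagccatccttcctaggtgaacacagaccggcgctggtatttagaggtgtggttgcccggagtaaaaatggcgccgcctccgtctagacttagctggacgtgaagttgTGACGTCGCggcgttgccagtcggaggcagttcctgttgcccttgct

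The 12 promoters with the CCGGAAG sequence are printed as windows of 40 bases around it, along the strand of each gene. Of the sequences searched, it had the share furthest above that of all genes, and it is not the antioxidant response element. The match is in capitals and reads CTTCCGG where it lies on the opposite strand.
Psma6 (chr12:55398677-55398716, plus strand): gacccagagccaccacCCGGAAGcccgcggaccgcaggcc
Psmc1 (chr12:100110158-100110197, plus strand): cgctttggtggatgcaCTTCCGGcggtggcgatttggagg
Psmc2 (chr5:21786707-21786746, plus strand): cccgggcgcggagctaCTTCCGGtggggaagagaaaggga
Psmc6 (chr14:45329708-45329747, plus strand): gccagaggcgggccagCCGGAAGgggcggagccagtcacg
Psmd11 (chr11:80428575-80428614, plus strand): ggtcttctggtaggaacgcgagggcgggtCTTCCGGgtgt
Psmd12 (chr11:107479488-107479527, plus strand): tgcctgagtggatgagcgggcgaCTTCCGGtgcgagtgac
Psmd2 (chr16:20651610-20651649, plus strand): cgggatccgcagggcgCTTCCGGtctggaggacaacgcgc
Psmd4 (chr3:95042716-95042755, minus strand): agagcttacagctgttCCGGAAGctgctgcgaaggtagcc
Psmd6 (chr14:14120967-14121006, minus strand): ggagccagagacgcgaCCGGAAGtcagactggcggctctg
Psme3 (chr11:101316090-101316129, plus strand): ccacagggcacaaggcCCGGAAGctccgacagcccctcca
Psme4 (chr11:30771706-30771745, plus strand): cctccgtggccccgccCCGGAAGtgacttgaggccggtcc
Psmg1 (chr16:95991006-95991045, minus strand): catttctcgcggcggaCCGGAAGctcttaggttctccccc
The first base of the match lay between 11 bases (Psmd11) and 132 bases (Psma6) before the start, and 9 of the 12 lay within 100 bases. The Psmc2 promoter held 2 matches, of which 1 is shown.

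Most of the machinery was detected in the hippocampus. All 6 ATPase genes, 10 of 11 genes of the other cap subunits, 8 of 9 beta ring genes, 4 of 8 alpha ring genes, all 4 activators, all 3 chaperones of the cap base and 3 of 4 chaperones of the core passed. The probes of the alpha ring genes Psma1, Psma3 and Psma6, the lid gene Psmd3 and the core chaperone gene Psmg4 were detected on 0 arrays, so they gave no level and no comparison for these genes. Psma8, a subunit of the testis, and Psmb11, a subunit of the thymus cortex, were detected on 2 arrays each. Among the genes that passed, Psmc6 was detected on 6 arrays, Psmd2 and Psme2 on 11, Psmd5 on 15 and the rest on 16. Psmc6 was detected on 0 of the 3 THC arrays of 2 months, so its values there are at background. In such bulk RNA, fewer cells of a type and less RNA per cell cannot be told apart.

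Most proteasome genes varied little between arrays of a group. The pooled within-group SD of their log2 values had a median of 0.163 over the 38 genes, beside 0.256 over the 22625 probes tested, and 30 of the 38 genes had an SD under 0.25. Against probes of a like level (within 0.5 on the log2 scale), 28 of the 38 genes had an SD below that of the middle probe. The lowest SD was 0.0961, for the nuclear PA28 gamma gene Psme3. The highest was 0.961, for the catalytic subunit gene Psmb5, and 99.5% of probes of a like level had a smaller one. Next came the deubiquitinase gene Psmd14 at 0.523, the lid gene Psmd6 at 0.506 and the scaffold gene Psmd2 at 0.444, and these genes return below in the comparison of slides.

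**Figure D1:**
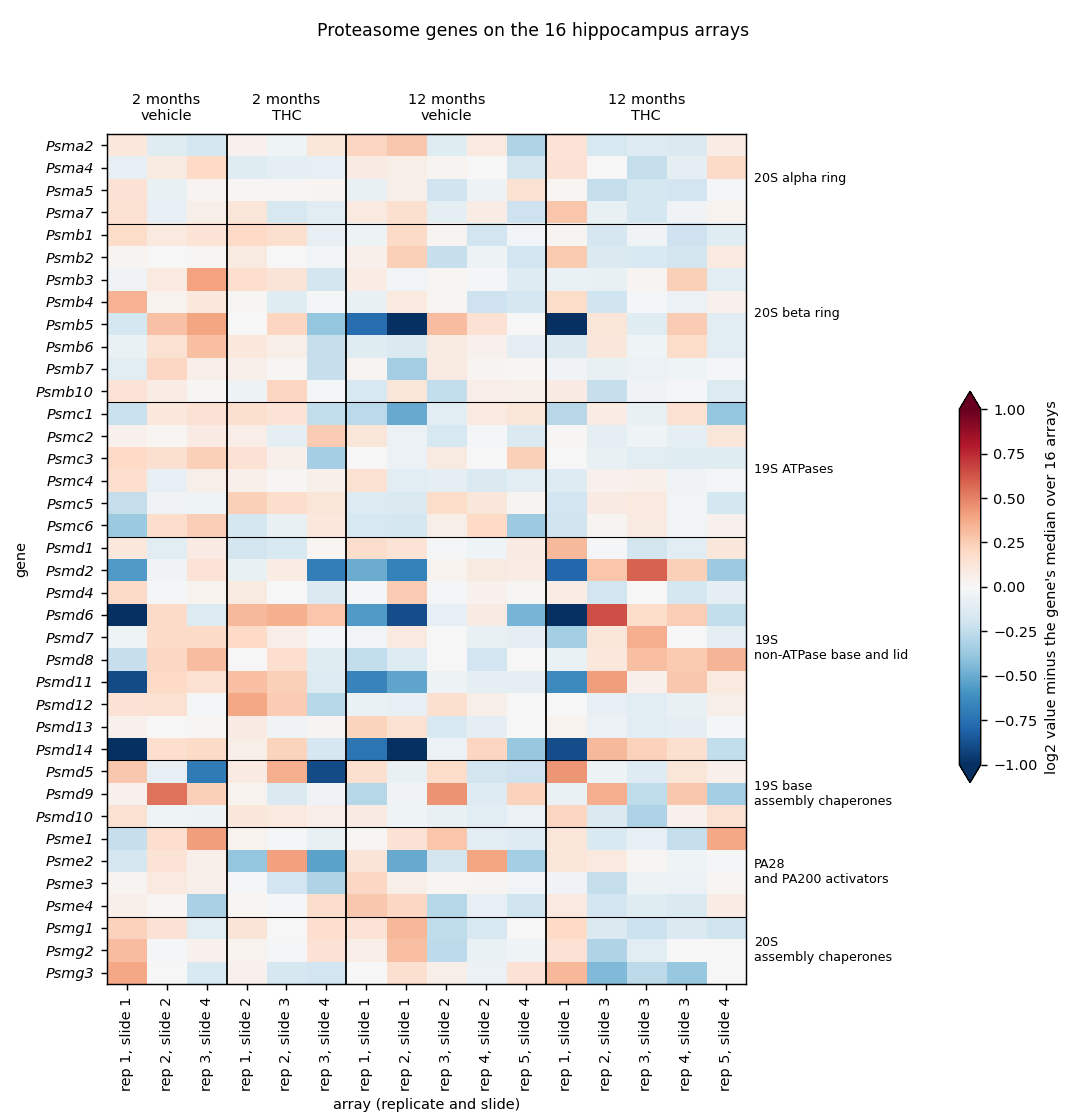
Each square is the log2 value of 1 gene on 1 array minus that gene's median over the 16 arrays (colour, clipped at 1 in both directions), with genes in rows by role and arrays in columns by group, each labelled with its replicate and slide. Most rows are pale across all groups, and the dark blue squares of Psmb5, Psmd6, Psmd11, Psmd14 and Psmd2 are mostly on slide 1 in every group that has an array there.

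Array titles hold a number that 4 arrays share, and this number is read here as the slide, a word that the labels do not use. There were 4 such slides. Slide 1 held vehicle replicate 1 of 2 months, vehicle replicates 1 and 2 of 12 months and THC replicate 1 of 12 months, and no THC array of 2 months. Between 41.1% and 42.2% of probes were detected on slide 1, and between 41.6% and 45.9% on the other 12 arrays. Markers of hippocampal neurons were present, with 11 of 14 genes passing and 10 detected on all 16 arrays. The choroid plexus list, a tissue next to the hippocampus, had a mean log2 value that ran from 5.03 to 9.49 over the arrays. Its range was 5.95 to 9.49 in vehicle mice of 2 months, 5.60 to 6.79 in THC mice of 2 months, 5.03 to 7.42 in vehicle mice of 12 months and 5.06 to 8.84 in THC mice of 12 months.

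The first comparison asked how proteasome genes differ with age without the drug, in 5 vehicle arrays at 12 months and 3 at 2 months. No proteasome gene passed limma's test at an adjusted p of 0.05 (0 of 38, with 0% of all 22625 probes called), and 0 of 38 had an unadjusted p under 0.05, beside 4.56% of all probes. In 0 of 38 genes did the groups not overlap, beside 1.44% of all probes on the higher side and 1.22% on the lower. The differences were small and mostly below 0: 32 of 38 genes were lower at 12 months, with a median log2 difference of −0.09, while 49.5% of all probes lay above 0 and their median was 0.00. This count and median are descriptions of genes that share arrays and were not tested as a group. In 31 of 38 genes the 95% interval lay within a 1.5-fold change in both directions, beside 61.3% of all probes. The proteasome probes were brighter, with a median log2 level of 9.94 beside 6.60 for all probes tested. The interval shares here and below were not matched for level. With the choroid plexus mean in the fit the median difference was −0.07, and without slide 1 it was −0.12. Within slides 1, 2 and 4 it was −0.02, −0.09 and −0.11. Mean log2 values of some other marker lists differed with age in vehicle mice as well, and these lists are named after their values were seen. The 9 tested genes of meninges and fibroblasts ran from 6.98 to 7.60 at 2 months and from 7.76 to 8.23 at 12 months. The 5 of oligodendrocyte precursors ran from 9.34 to 9.40 at 2 months and from 9.05 to 9.24 at 12 months. Neither list overlapped between the vehicle groups, while all the other lists did. In THC mice both of these lists overlapped between the ages. The part of these lists in the result was not tested.

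The beta ring lay furthest from 0 in that comparison. All 8 of its detected genes were lower at 12 months, with a median of −0.16 and a range from −0.73 to −0.05. Of the cap ATPases 5 of 6 were lower (median −0.11), of the other cap subunits 8 of 10 (−0.06), of the alpha ring 3 of 4 (−0.04), of the cap base chaperones 2 of 3 (−0.06), of the core chaperones 3 of 3 (−0.07) and of the activators 3 of 4 (−0.04). None of these differences passed the test (0 of 38, as above).

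The beta ring gene Psmb4, a structural subunit, had the smallest p among the lower genes. Its log2 values were 12.59, 12.28 and 12.34 in vehicle mice of 2 months and 12.17, 12.34, 12.26, 12.03 and 12.07 at 12 months. The groups overlapped, and the highest young value was on slide 1. The difference was −0.23 ± 0.12 (SE; group means 12.17 ± 0.13, SD, n = 5, and 12.40 ± 0.17, n = 3; limma adjusted p = 1.000), and it was −0.14 without that young array. Psmd8, a lid subunit, followed at −0.21 ± 0.14, from 10.01, 10.45 and 10.55 at 2 months to 9.996, 10.10, 10.24, 10.05 and 10.24 at 12 months. Here the young array on slide 1 was as low as the lowest old array, and without it the difference was −0.37. On the higher side, the ATPase gene Psmc5 differed by 0.11 ± 0.12 and the alpha ring gene Psma2 by 0.09 ± 0.14, both with overlapping groups. A second probe of Psmc5 gave −0.10.

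The catalytic subunits had differences of −0.73 ± 0.60 (Psmb5), −0.17 ± 0.13 (Psmb6) and −0.09 ± 0.13 (Psmb7) with age in vehicle mice. The value of Psmb5 rested on slide 1. Its log2 values at 2 months were 8.66 on slide 1, 9.13 and 9.23, and at 12 months 8.08 and 6.35 on slide 1 and 9.15, 8.98 and 8.84 on the other slides. Without vehicle replicate 2 of 12 months the difference was −0.25, and within slides 2 and 4 it was −0.07 and −0.39. Psmb10, which replaces Psmb7 in the interferon-inducible core, differed by −0.11 ± 0.13. The PA28 genes Psme1, Psme2 and Psme3 differed by −0.08 ± 0.17, −0.11 ± 0.21 and 0.00 ± 0.11, and the PA200 gene Psme4 by 0.07 ± 0.15. For Psme3 the old values, from 10.02 to 10.25, spanned the young values, from 10.07 to 10.14.

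**Figure D2:**
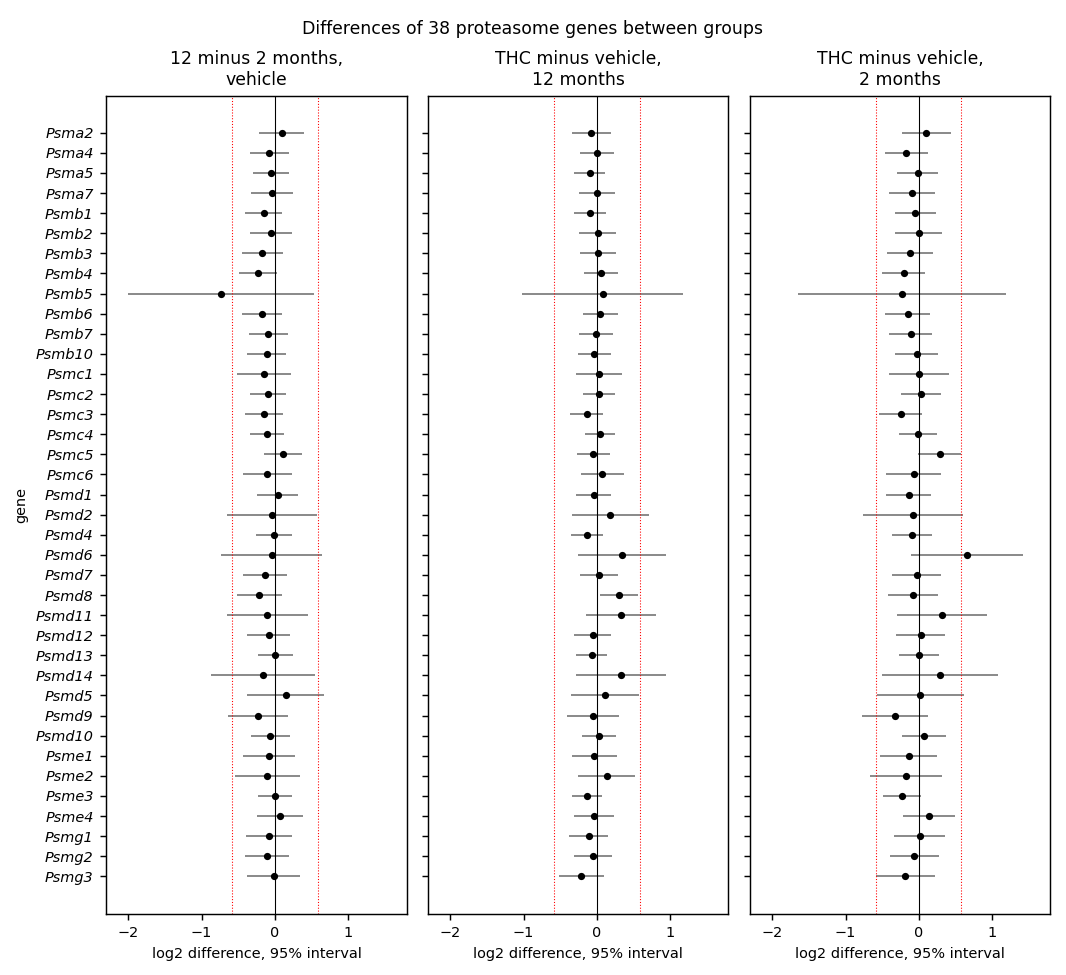
Points are log2 differences between group means for the 38 proteasome genes and bars their 95% intervals, for age in vehicle mice (left), THC at 12 months (middle) and THC at 2 months (right), with dotted red lines at a 1.5-fold change. Intervals of 31, 33 and 30 genes lie between the lines, and the widest interval in each panel is that of Psmb5.

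THC at 12 months was compared with vehicle at 12 months on 5 arrays each. Again 0 of 38 proteasome genes passed (0% of all probes), and the genes were spread evenly about 0, with 19 higher (50%, beside 48.8% of all probes) and 19 lower and a median of 0.00. The groups overlapped in all 38 genes, while 0.194% of all probes did not overlap on the higher side and 0.433% on the lower. Intervals of 33 of 38 genes lay within a 1.5-fold change, beside 71.9% of all probes. The cap subunits other than the ATPases had a median of 0.11 (6 of 10 higher) and the core chaperones a median of −0.11 (3 of 3 lower). With the slide as a block these medians were 0.022 (6 of 10 higher) and 0.018 (2 of 3 higher), so the direction of the core chaperones turned. The largest difference was that of Psmd6, 0.35, and the lowest that of Psmg3, −0.21.

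Psmd8 was the only proteasome gene with an unadjusted p under 0.05 on the higher side (1 of 38, beside 1.87% of all probes, or 4.77% in either direction), and 0 of 38 had one on the lower side (2.91% of all probes). Its log2 values were 10.17, 10.34, 10.54, 10.50 and 10.58 in THC mice and 9.996, 10.10, 10.24, 10.05 and 10.24 in vehicle mice. The lowest THC value, on slide 1, lay among the vehicle values, and the other THC values lay above them all. The difference was 0.30 ± 0.12 (fold 1.23; group means 10.43 ± 0.17 and 10.13 ± 0.11, n = 5 each; limma adjusted p = 0.916). With the slide as a block it was 0.20 ± 0.13 and no longer had an unadjusted p under 0.05, and within slides 1 and 4 it was 0.12 and 0.34. The vehicle arrays of 12 months that enter here also enter the age comparison, where Psmd8 had the difference of −0.21 given above.

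Psmd11, a lid subunit, differed by 0.33 ± 0.23 with THC at 12 months. Its values were 6.56, 7.62, 7.24, 7.46 and 7.29 in THC mice and 6.52, 6.67, 7.15, 7.09 and 7.11 in vehicle mice. The low value of the THC group and both low values of the vehicle group were on slide 1, and with the slide as a block the difference was 0.12. On the lower side, the core chaperone gene Psmg3 differed by −0.21 ± 0.15 and Psme3 by −0.13 ± 0.10. The block turned Psmg3 to 0.03, and 1 array of the THC group, replicate 1 on slide 1, was high at 7.70 against 6.93 to 7.37 on the other 4. The remaining activators Psme1, Psme2 and Psme4 differed by −0.03 ± 0.14, 0.13 ± 0.18 and −0.04 ± 0.13. A second Psme1 probe gave −0.17.

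Of the catalytic subunits, Psmb6 differed by 0.05 ± 0.11 and Psmb7 by −0.01 ± 0.11 with THC at 12 months, and Psmb10 by −0.03 ± 0.11. Second probes of Psmb6 and Psmb10 gave −0.18, opposite in sign to the first, and −0.14. Other Psmb7 probes gave −0.06, −0.01 and −0.23. Psmb5 differed by 0.08 ± 0.52, with an interval from −1.02 to 1.18. Its THC values were 6.30 on slide 1 and 8.96, 8.72, 9.09 and 8.73 on the others, so each group of 12 months had at least 1 array more than 2 log2 units below its own slides 2 to 4. The sign of the difference changed with these arrays. It was 0.59 without THC replicate 1, −0.40 without vehicle replicate 2, and −0.54 ± 0.37 with the slide as a block.

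At 2 months, THC and vehicle were compared on 3 arrays each. No gene passed (0 of 38, with 0% of all probes), and 0 of 38 had an unadjusted p under 0.05, beside 6.12% of all probes. The median difference was −0.05, with 14 genes higher (36.8%, beside 49.6% of all probes) and 24 lower, and intervals of 30 of 38 genes lay within a 1.5-fold change, beside 45.1% of all probes. The groups did not overlap for 2 genes that were higher in THC mice (5.26%, beside 5.51% of all probes) and for 5 that were lower (13.2%, beside 6.13%). The higher ones were Psmc5 and Psmd6, and the lower ones were Psma4, Psmb4, Psmc3, Psmd9 and Psme3. The highest THC values of Psma4, Psmb4 and Psmd9 were 11.108, 12.255 and 5.882. Their lowest vehicle values were 11.114, 12.278 and 5.892, so these groups were separated only narrowly.

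The ATPase gene Psmc5 had values of 11.52, 11.46 and 11.40 in THC mice and 11.04, 11.25 and 11.24 in vehicle mice, with the lowest on slide 1. All THC values lay above all vehicle values. The difference was 0.28 ± 0.14 (means 11.46 ± 0.06 and 11.18 ± 0.12, n = 3 each; limma adjusted p = 0.781), and it was 0.20 ± 0.11 with the slide as a block. The second probe of the gene gave −0.20, so its probes disagreed in sign. Psmd6 had values of 6.56, 6.59 and 6.51 in THC mice and 5.16, 6.43 and 6.10 in vehicle mice. The value of 5.16 was on slide 1, which held no THC array of this age. The difference was 0.66 ± 0.37 (fold 1.58, adjusted p = 0.781), 0.29 without that array and 0.27 with the slide as a block, and a second Psmd6 probe gave 0.63. That second probe was detected on 0 of the 4 arrays of slide 1. It was kept only through the arrays where it is high, so it is not independent support.

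On the lower side at 2 months stood Psme3 and the ATPase gene Psmc3. Psme3 had values of 10.03, 9.85 and 9.75 with THC and 10.07, 10.14 and 10.10 with vehicle, a difference of −0.23 ± 0.12. Psmc3 had values of 10.39, 10.30 and 9.91 with THC and 10.45, 10.41 and 10.49 with vehicle, a difference of −0.25 ± 0.14. In both genes the lowest value was that of THC replicate 3, on slide 4, and without it the differences were −0.16 and −0.10. Psme1, Psme2 and Psme4 differed by −0.14 ± 0.19, −0.18 ± 0.23 and 0.14 ± 0.17, and a second Psme1 probe gave −0.35.

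The beta ring at 2 months had 7 of 8 genes lower with THC and a median of −0.11, while 49.6% of all probes lay above 0. The young vehicle arrays used here are also those of the age comparison in vehicle mice. The beta ring counts of both comparisons share them and are not separate patterns. Psmb6 differed by −0.15 ± 0.15, Psmb7 by −0.11 ± 0.14 and Psmb10 by −0.03 ± 0.14. Psmb5 had values of 8.84, 9.06 and 8.45 with THC and differed by −0.23 ± 0.67. With the slide as a block it differed by −0.93 ± 0.40 (limma adjusted p = 0.474). The block takes the same shift of a slide for all its groups. Slide 1, where Psmb5 ran from 6.30 to 8.66, held no THC array of this age. Within slide 2 the difference was −0.30 and within slide 4 −0.78, each from 1 array against 1.

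In THC mice, 12 months were compared with 2 months, on arrays that also entered the drug comparisons. No gene passed (0 of 38, with 0% of all probes), and 0 of 38 had an unadjusted p under 0.05, beside 7.33% of all probes. The median difference was −0.05, with 14 genes higher (beside 46.8% of all probes) and 24 lower, and 31 of 38 intervals lay within a 1.5-fold change (57.5% of all probes). Psmc5 was the only gene whose groups did not overlap (1 of 38 lower, beside 2.7% of all probes; 0 of 38 higher, beside 3.67%). It went from 11.52, 11.46 and 11.40 at 2 months to 11.09, 11.37, 11.38, 11.26 and 11.10 at 12 months, a difference of −0.22 ± 0.12 (limma adjusted p = 0.752), and its second probe gave 0.025. The young THC values are the same as in the comparison before. The structural beta ring gene Psmb1 differed by −0.19 ± 0.12, Psmd8 by 0.17 ± 0.14 and the scaffold gene Psmd1 by 0.13 ± 0.13. The beta ring had 5 of 8 genes lower, with a median of −0.04.

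Old THC mice were also compared with young vehicle mice, which asks whether treated old animals differ from untreated young ones. No proteasome gene passed (0 of 38), and of all probes 0.00442% did, that is 1 probe, which was not one of theirs. The median was −0.08, with 10 genes higher (26.3%, beside 48.7% of all probes) and 28 lower, and 31 of 38 intervals lay within a 1.5-fold change, beside 60% of all probes. In the beta ring, all 8 genes were again lower (median −0.15, from −0.65 for Psmb5 to −0.04). With the slide as a block 7 of 8 were lower, and Psmb5 stood at −1.17 ± 0.40. That value depends on slide 1, where Psmb5 was 6.30 in old THC and 8.66 in young vehicle mice. On the other slides it was 8.96, 8.72, 9.09 and 8.73 in old THC mice, and 9.13 and 9.23 in young vehicle mice. The block takes the same shift of a slide for all its groups, so −1.17 is not a firmer estimate. These young vehicle arrays are also those of the age comparison in vehicle mice and of THC at 2 months, so the counts of all these comparisons share them. Psmc3 was the only gene with an unadjusted p under 0.05 (1 of 38 lower, beside 2.2% of all probes, or 4.48% in either direction), with values of 10.25, 10.17, 10.13, 10.13 and 10.13 in old THC mice and 10.45, 10.41 and 10.49 in young vehicle mice. The groups did not overlap, and the difference was −0.29 ± 0.12 (fold 0.821; limma adjusted p = 0.996). Groups of 3 genes in all did not overlap, each lower in old THC mice (7.89%, beside 2.19% of all probes; 0 of 38 were higher, beside 1.51%), namely Psmc3, Psmb1 at −0.24 ± 0.12 and Psme3. On the higher side, the cap base chaperone gene Psmd5 differed by 0.26 ± 0.25 and Psmd6 by 0.31 ± 0.33. Psmd5 turned to −0.01 without vehicle replicate 3 of 2 months, and Psmd6 to −0.06 without vehicle replicate 1.

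The difference between the THC responses at 12 and at 2 months was tested directly. No gene passed (0 of 38, with 0% of all probes), and 0 of 38 had an unadjusted p under 0.05, beside 5.21% of all probes. The median of the difference was 0.04, with 25 genes above 0 (65.8%, beside 48.5% of all probes). Psmc5 had the smallest p, with a response at 12 months lower by 0.34 ± 0.17 than at 2 months (log2 difference −0.34, limma adjusted p = 0.955). Psmd8 followed at 0.38 ± 0.20 and Psmb4 at 0.26 ± 0.18. The second Psmc5 probe gave 0.12, opposite in sign to the first. Only 22 of 38 genes had an interval within a 1.5-fold change here, beside 22.3% of all probes, so this comparison was the least precise.

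The slide as a block moved the counts of proteasome genes with an unadjusted p under 0.05. In vehicle mice, age gave 1 of 38 (Psmb4, beside 8.7% of all probes), and in THC mice 0 (12.8%). The drug gave 0 at 12 months (11.5%) and 2 at 2 months (Psmb5 and Psmd2, 10.1%). Old THC against young vehicle mice gave 1 (Psmb5, 10.5%), and the difference of the responses 2 (Psmc5 and Psmd8, 10.4%). These genes are named after their values were seen. The values of Psmb5 with the block depend on slide 1, as given above. None passed after adjustment (0 of 38 in each).

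A comparison of slide 1 with the mean of slides 2 to 4, with the group in the fit, was added after the values of Psmb5 had been seen. It compares arrays, not treatments. Of all 22625 probes 32.7% passed, and of the proteasome genes 16 of 38 (42.1%). There were 8 higher on slide 1 (21.1%, beside 16.1% of all probes) and 8 lower (21.1%, beside 16.6%). The 8 lower genes include Psmb5, whose values led to this comparison, and Psmd2, which passed the filter only through arrays where it is high. For both genes the call carries no test. The higher genes lay between 0.22 and 0.35, and Psmd11, Psmd6 and Psmd14 between −0.76 and −1.02. Leaving out single arrays of slide 1 left 7 passing genes (without vehicle replicate 1 of 2 months), 8 (without THC replicate 1 of 12 months), 10 and 8 (without vehicle replicates 1 and 2 of 12 months). On the higher side these were 2, 2, 4 and 2 genes, and on the lower side 5, 6, 6 and 6.

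Of the 8 lower genes on slide 1, 7 were genes of the cap, a tally that includes Psmd2, whose call carries no test. They were 2 of the 6 tested ATPases and 5 of the 10 other tested subunits, beside 16.6% of all probes. Of those 10, 1 was higher, beside 16.1% of all probes. Psmd14, the cap's deubiquitinase, had values of 8.34 to 8.73 on slide 1 and 9.08 to 9.79 on the other 12 arrays, which do not overlap. The difference was −1.02 ± 0.12 (limma adjusted p = 3.689e-05). Psmd6 had 5.16 to 5.67 against 5.77 to 6.88, a difference of −0.93 ± 0.14, and Psmd11 had 6.30 to 6.67 against 7.06 to 7.62, a difference of −0.76 ± 0.11. These were the 3 genes whose slide 1 values lay below all others (7.89%, beside 7.37% of all probes). Psmd2, a scaffold of the cap base, was detected on 0 of the 4 arrays of slide 1 and on 11 of the other 12, so it was kept only through the arrays where it is high. Against the lowest detected signal it was at least 1.28-fold lower on slide 1 (measured means 4.64 and 5.30), and for that reason its difference carries no test here. The ATPase genes differed, Psmc1 by −0.36 ± 0.11 and Psmc5 by −0.22 ± 0.08, and Psmd8 by −0.28 ± 0.10. A second Psmc5 probe, detected on all 16 arrays, gave 0.02 ± 0.15. Whichever single array of slide 1 was left out, the first Psmc5 probe had a limma adjusted p between 0.0837 and 0.111. Psmd8 had 0.172 without vehicle replicate 1 of 2 months, and 0.142 and 0.0621 without THC and vehicle replicate 1 of 12 months. Psmc1 had 0.0746 without vehicle replicate 1 of 2 months and 0.0766 without vehicle replicate 2 of 12 months. Psmd14, Psmd6 and Psmd11 passed in each of these fits. Psmb5 differed by −1.75 ± 0.29, which is the difference that led to this comparison and so carries no test. On slide 1 it ran from 6.30 to 8.66, and on the other 12 arrays from 8.45 to 9.23. The low values of 6.30 and 6.35 were those of THC replicate 1 and vehicle replicate 2 of 12 months.

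By their brightest probes, higher genes on slide 1 included all 3 detected chaperones of the core, Psmg1 at 0.34 ± 0.09, Psmg2 at 0.29 ± 0.09 and Psmg3 at 0.35 ± 0.11. The other Psmg2 probes passed in the opposite direction, at −0.87 ± 0.11 and −0.94 ± 0.18. The alpha ring genes Psma2 and Psma7 differed by 0.31 ± 0.09 and 0.26 ± 0.09, the beta ring gene Psmb2 by 0.27 ± 0.09, the PA200 gene Psme4 by 0.31 ± 0.10 and the cap scaffold gene Psmd1 by 0.22 ± 0.08. Other Psmd1 probes gave 0.09 ± 0.08 and −0.63 ± 0.11. Each of the 8 higher genes had, for its brightest probe, a limma adjusted p between 0.0130 and 0.0462. In none did slide 1 lie wholly above the other 12 arrays (0 of 38, beside 3.67% of all probes). Without THC replicate 1 of 12 months Psmg1, Psmg2 and Psmg3 had adjusted p of 0.0755, 0.0746 and 0.179, and Psma2 and Psme4 were the 2 higher genes left. Markers of other cells moved on slide 1 as well: 4 of 8 tested myelin genes were higher and 0 lower, beside the 16.1% and 16.6% of all probes. Of the microglia genes 3 of 10 were lower, of the genes of inhibitory neurons 3 of 7 were lower and 1 higher, of the astrocyte genes 2 of 8 were lower, and 0 of 8 choroid plexus genes passed. The other lists had at most 1 gene in each direction. Their part in these differences was not tested.

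**Figure D3:**
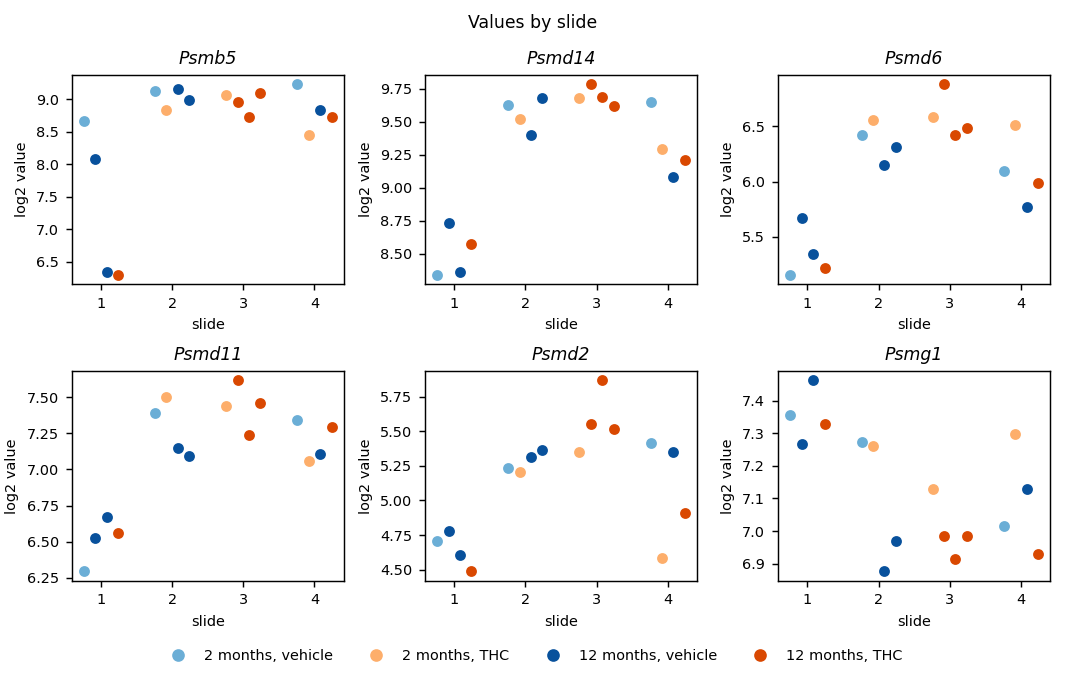
Points are log2 values of single arrays for 6 proteasome genes, by slide (horizontal axis) and group (colour). Slide 1 holds the lowest values of Psmd14, Psmd6 and Psmd11 in both vehicle groups and the old THC group, Psmb5 is low on 2 of its 4 arrays by over 2 log2 units, and Psmg1 lies high there.

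Probes of the same gene could be compared for 17 proteasome genes, with 40 tested probes in all. For 8 of these genes the probes differed in the sign of their slide 1 difference, and for 2 genes probes passed in opposite directions. The Psmd1 probes differed by 0.22 ± 0.08, 0.09 ± 0.08 (not passing) and −0.63 ± 0.11. The Psmg2 probes differed by 0.29 ± 0.09, −0.87 ± 0.11 and −0.94 ± 0.18. For the ATPase gene Psmc2, the brightest probe differed by 0.09 ± 0.09, and a dimmer one by −1.32 ± 0.15, and for the lid gene Psmd12 the values were −0.02 ± 0.10 and −1.34 ± 0.15. Psmd10 and Psmd7 each had a dimmer probe that passed, at −0.53 ± 0.09 and 0.44 ± 0.11. Their brightest probes did not pass, at 0.20 ± 0.09 and −0.17 ± 0.11. The slide difference of these genes thus depended on the probe that was read. All tested probes passed in the same direction for 4 genes, higher for Psmb2 and lower for Psmd6, Psmd11 and Psmd14. The second probes of Psmd6 and Psmd11 were detected on 0 of the 4 arrays of slide 1 and on 11 and 9 of the other 12, so they were kept only through the arrays where they are high, and they are not independent support for the first. The second probe of Psmd14 differed by −1.35 ± 0.15. Psmb5 had a single probe, so its low values could not be set against another one.

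**Figure D4:**
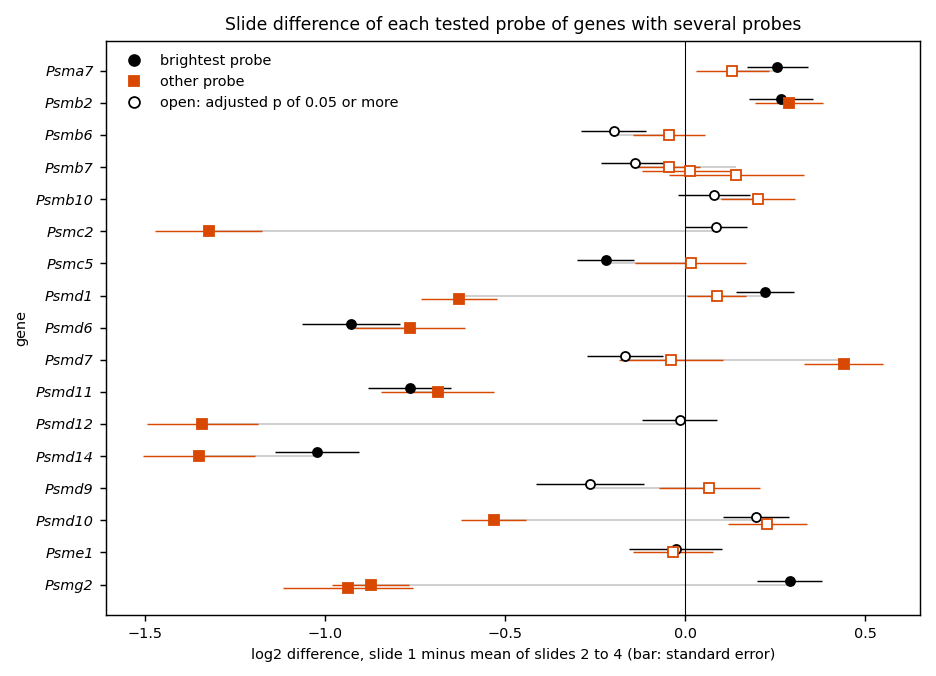
Each point is the slide 1 difference (log2, slide 1 minus the mean of slides 2 to 4) of 1 tested probe with its standard error, for the 17 genes with several tested probes; black circles are the brightest probe, orange squares the others, and open symbols did not pass. Probes of Psmc2, Psmd1, Psmd12 and Psmg2 lie over 0.8 apart, while those of Psmb2, Psmd6 and Psmd11 lie close together.

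Other genes of the ubiquitin and proteasome pathway were read in the same way. Of 21 found on the array 18 passed the detection filter (Txnl1, Ngly1 and Ubqln2 did not), and 0 of 18 passed limma's test in any of the 6 comparisons. An unadjusted p under 0.05 was found for 1 of 18 (beside 6.12% of all probes) in THC at 2 months, 1 (7.33%) in age in THC mice, 1 (4.48%) in old THC against young vehicle mice and 0 in the other 3. For age in vehicle mice their median was −0.06, with 6 of 18 above 0. Nfe2l2, an activator of antioxidant genes, differed by 0.35 ± 0.18, with old values all above the young ones (1 of 18, beside 1.44% of all probes), and Ecpas, an adaptor of the proteasome, by 0.26 ± 0.23. Ufd1, a cofactor of the segregase Vcp, differed by −0.32 ± 0.26 and Sem1, a small cap subunit, by −0.30 ± 0.26. With THC at 12 months the median was 0.02 and Sem1 differed by 0.36 ± 0.22, Bag6, a chaperone of misplaced membrane proteins, by 0.18 ± 0.12, Nploc4, the partner of Ufd1, by −0.21 ± 0.16 and the inducible subunit gene Psmb8 by −0.16 ± 0.13.

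With THC at 2 months, Ufd1 differed most among the pathway genes, by −0.87 ± 0.29 (fold 0.548; limma adjusted p = 0.781), and its groups did not overlap (1 of 18 lower, beside 6.13% of all probes). Vcp differed by −0.14 ± 0.12, the cap deubiquitinase gene Uchl5 by 0.36 ± 0.22 and the shuttle factor gene Ubqln1 by 0.19 ± 0.19. On slide 1, 8 of 18 pathway genes passed (32.7% of all probes did), 1 higher (Nploc4 at 0.50 ± 0.09, beside 16.1% of all probes) and 7 lower (16.6%). The lower ones, chosen after their values were seen, were Usp14, a deubiquitinase of the cap, at −1.004 ± 0.150, Sem1 at −0.76 ± 0.10, Rad23b, Uba6, Uchl5, Nfe2l1 at −0.42 ± 0.10 and Ubqln1. The probes of Sem1, Uchl5, Nploc4 and Ubqln1, named in the drug comparisons above, are thus among those that differed by slide.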

How the data were processed

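Total RNA of mouse hippocampus was turned into biotin cRNA and read on 16 bead arrays (Illumina), per the labels' protocols. Per the file headers, 1 deposited table gives a log2 intensity and a detection p-value for each probe on each array, without normalization between arrays. A further deposited table gives log2 values that had been quantile normalized by the authors, as a comparison of both tables showed (largest difference 0.00713). The submitters' processing notes name Partek, with further steps "not given in the sources used here". Text stood in 26 detection p-value cells of the first array. These counted as missing for the filter, and interpolated values took their place in the background correction.

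Background correction and normalization used neqc with an offset of 16 (limma 3.58.1, R 4.3.3). A detection p-value under 0.05 on 3 or more arrays was required, which kept 22625 of 45281 probes. A model with 1 mean per group over all 16 arrays was fitted with limma's moderated variances, and the two-sided p-values were adjusted over all probes by Benjamini and Hochberg; passing means an adjusted p under 0.05. Intervals are 95% intervals, and a fold is computed from the log2 difference. The number of arrays limits the precision. Plots were made in Python 3.11.15 (matplotlib 3.10.9). Gene names come from the platform annotation, and all 45 symbols matched RefSeq by Entrez ID.

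The members, the lists, the tests and the rule for named genes were chosen with earlier results of these data known. The rule names, in each of the first 5 comparisons, the 2 genes of smallest p in each direction, in the sixth the 3 of smallest p, the catalytic subunits, Psmb10 and the activators in the first 3, and 2 pathway genes per direction in the first 3. Genes whose groups do not overlap, and the probes and genes named for slide 1, were chosen after their values were seen. Alternatives were other normalizations and filters, the slide as a block (fixed or random), array weights, a variance trend, a covariate for the choroid plexus mean, the next brightest probe, differences within slides, the compared groups alone, and leaving out each array or slide 1.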

Additional observations from a re-analysis of the deposited data

Results flagged for a closer look

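Single arrays stood apart from the rest of their group, by Dixon's test at the 95% level, in 5 of the 76 gene and group pairs of 5 arrays, and chance flags about 1 in 20 such pairs. All 5 values came from slide 1. The log2 value of Psmb5 in THC replicate 1 of 12 months was 6.30, with 8.72 to 9.09 on the other 4 arrays. Psmb7 in vehicle replicate 2 of 12 months was 10.98, with 11.34 to 11.42 on the others. Psmc4 in vehicle replicate 1 of 12 months was 11.44, with 11.14 to 11.19 on the others. Psmd4, the ubiquitin receptor of the cap, was 12.28 in vehicle replicate 2 of 12 months, with 12.01 to 12.06 on the others. Psmg1 in THC replicate 1 of 12 months was 7.33, with 6.92 to 6.99 on the others. Groups of 3 arrays were not examined in this way.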

How the results depend on the processing

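No proteasome gene passed in any of the 6 comparisons under any alternative (0 of 173 counts), and the smallest adjusted p of a named gene in any of them was 0.425. Over all 38 genes, with the slide as a fixed block, it was 0.328 (Psmb5, old THC against young vehicle). Of 1328 recomputed differences of named genes 71 changed sign, and 21 of the 45 differences never did. Medians changed sign in 11 of 179 recomputations and moved by more than the within-group SD of the genes' mean (0.0690) in 4. These were THC at 2 months within slide 2 (0.025) and slide 4 (−0.19), age in THC mice within slide 4 (0.070) and the difference of the THC responses within slide 4 (0.21), each from 1 array a group. The cause was not tested. Passing genes on slide 1 numbered 7 to 10 when single arrays of it were left out, and 20 with quantile normalization alone or the series matrix values. With the slide as a block, probes passing over the whole array numbered 31 for THC at 12 months (0 without it), 2 for age in the vehicle groups (0 without it), 2 for old THC against young vehicle (1 without it) and 0 for the other 3 (0 without it). No paired analysis was possible because the labels give no replicate numbers (those used here only name arrays), and arrays were matched by slide alone, as a block or within slides. Probes near background (Psmc6, Psmd2, Psme2) are measured less precisely.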
